A study of Mus musculus with 23 samples.

Results

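Tumors of mice that lack IL-38 were compared with tumors of wild-type mice. The comparison took the 4 libraries of PyMT IL-38 KO mice that received IgG and the 4 libraries of PyMT WT mice that received IgG, which are 8 of the 23 libraries of the series. In the PyMT model the polyoma virus middle T oncoprotein is expressed in the mammary epithelium of transgenic mice, which then develop mammary carcinomas. All mice were female and on a C57BL/6 background, and the IL-38 KO line was made in the C57BL/6N substrain and then crossed with PyMT mice. Both groups received polyclonal Armenian hamster IgG, the isotype control of a γδ T cell receptor (TCR) antibody, once a week for 5 weeks from 13 weeks of age, at 500 µg first and 200 µg thereafter. RNA came from whole tumors, which per the study's methods were dissociated before extraction, so that fewer cells of a type and less RNA per cell cannot be told apart. Libraries were 3′ mRNA libraries, in which reads lie near the end of the transcript, and values are normalized counts, that is, reads divided by 1 size factor per library. Genes with a mean of at least 5 over the 8 libraries were tested, which were 16563 of 47643 gene identifiers. Fold changes are differences in log2(normalized count + 1) between KO and WT tumors, and adjusted p-values are those of limma over all 16563 genes unless DESeq2 or edgeR is named.

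IL-38, encoded by Il1f10, is a member of the interleukin-1 (IL-1) family that limits inflammation. It is released by dying cells and acts on γδ T cells and on other cells that respond to IL-1 and IL-36. Interferons, a separate group of cytokines, signal through Jak kinases and Stat proteins and switch on the interferon-stimulated genes, whose products sense and restrict viral nucleic acid. Mammary tumor cells also use Wnt receptors and the folding capacity of the endoplasmic reticulum (ER), and both programs were followed here with fixed gene lists.

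The library of IL-38 KO replicate 4 stood apart from the other 7. It held 8620899 reads on genes against 11387847 to 15879164 in the others, and its median correlation with the other 7 was 0.872, against 0.955 to 0.964 for each of those. Processed pseudogenes took 1.46% of its reads against 0.120% to 0.191% in the others, and Gm42418, a gene that overlaps ribosomal RNA, took 11.3% against 2.82% to 5.70%. The 4 KO libraries from mice given γδ TCR antibodies, used here only in the last comparison, had 1.31% to 1.98% and 11.6% to 20.1% in the same measures. Values are therefore given for each tumor, and counts also without this library. It lay with those 4 libraries rather than with its own group in both measures, so its label or batch is in doubt. The labels give no batch, and the library was kept in the group that its label names. The part of these library differences in the results was not tested. Il1f10 had 0 reads in all 8 libraries, which allows up to 0.189 to 0.348 CPM, the unit of reads scaled to library size, so the genotype could not be checked from its own transcript. Nothing in the labels says whether tumors of 1 group came from separate mice, and p-values measure the spread between these samples.

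Across all genes, 1 of 16563 passed an adjusted p of 0.05, which is 0.00604%. It was Gm10093, a processed pseudogene, described below with the gene it copies. No gene passed without KO replicate 4. An unadjusted p under 0.05 was reached by 2010 genes (12.1%) with 8 libraries, of which 1115 (6.73%) were higher and 895 (5.40%) lower in KO tumors, and by 2306 genes (13.9%) without KO replicate 4, 1332 (8.04%) higher and 974 (5.88%) lower. The values of the 4 KO and the 4 WT tumors did not overlap in 1170 genes (7.06%), with 606 (3.66%) higher and 564 (3.41%) lower in KO tumors. Without KO replicate 4 there were 2100 such genes (12.7%), 1211 (7.31%) higher and 889 (5.37%) lower. With 8 libraries the split depended on the scaling: 51.8% of the genes without overlap were higher in KO tumors on the deposited values, and 42.2% on CPM. DESeq2, run on whole reads, called 305 of the 13470 genes for which it gave an adjusted p (2.26%), of which 221 (1.64%) were higher and 84 (0.624%) lower. edgeR called none of 16563 genes, with 2219 (13.4%) at an unadjusted p under 0.05. The tools thus differed in how many genes they called, and for the genes below the values of the tumors are given together with the calls of each tool. The median difference of all genes was 0.01 on the log2 scale, and -0.01 without KO replicate 4.

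Promoter sequences are given for interferon-stimulated genes and for genes of ER folding, since DNA elements of both programs are known and show what members share beyond their levels. The 250 bases before the transcription start were taken from RefSeq on GRCm38.p6 and searched on both strands for 2 blocks of GAAA with any 2 bases between them, the core of the interferon-stimulated response element that Stat and Irf proteins bind, and for CCAAT and CCACG with any 9 bases between them, the ER stress element. Of 31 interferon-stimulated genes tested, 21 had a promoter sequence, and 14 of these held the first motif. It was held by 936 of all 27025 genes with a promoter (3.46%). Of 30 ER genes tested, 25 had a promoter and 7 held the second motif (28%), against 35 of 27025 (0.130%). The match is a description of these letters and not of binding. The promoters below are those of 3 interferon-stimulated genes that were lower in every KO tumor and of 1 ER gene that was higher in every KO tumor. Capitals mark the motif, in the reverse orientation where they begin with TTTC, and overlapping matches run together.
Ifit3, chr19:34583279-34583528 (+): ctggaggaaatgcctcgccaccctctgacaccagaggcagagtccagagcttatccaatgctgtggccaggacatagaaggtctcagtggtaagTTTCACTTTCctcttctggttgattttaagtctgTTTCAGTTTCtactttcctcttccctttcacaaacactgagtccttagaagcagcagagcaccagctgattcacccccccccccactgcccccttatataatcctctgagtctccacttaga
Gbp2, chr3:142620413-142620662 (+): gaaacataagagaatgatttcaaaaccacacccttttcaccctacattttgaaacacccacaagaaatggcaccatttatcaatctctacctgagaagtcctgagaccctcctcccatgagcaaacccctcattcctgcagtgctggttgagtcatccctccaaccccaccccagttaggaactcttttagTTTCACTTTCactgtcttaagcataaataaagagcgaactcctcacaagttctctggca
Isg15, chr4:156200819-156201068 (-): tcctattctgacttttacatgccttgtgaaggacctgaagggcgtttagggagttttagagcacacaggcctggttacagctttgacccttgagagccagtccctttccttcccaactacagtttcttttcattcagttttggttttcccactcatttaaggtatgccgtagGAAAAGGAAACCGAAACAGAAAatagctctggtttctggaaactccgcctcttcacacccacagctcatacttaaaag
Pdia6, chr12:17266339-17266588 (+): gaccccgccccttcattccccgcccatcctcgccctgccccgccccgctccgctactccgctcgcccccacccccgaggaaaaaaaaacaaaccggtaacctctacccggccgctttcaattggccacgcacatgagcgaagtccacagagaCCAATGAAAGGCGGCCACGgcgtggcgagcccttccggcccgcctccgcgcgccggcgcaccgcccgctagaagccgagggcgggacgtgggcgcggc
Ifit3 held 2 matches, Gbp2 had 1 and Isg15 had 3 that overlap, and Pdia6 held 1 ER stress element.

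Interferon-stimulated genes were lower in IL-38 KO tumors as a list. Of 31 members tested, 31 had a lower mean in KO tumors, 20 at an unadjusted p under 0.05, and none passed an adjusted p of 0.05, with adjusted p-values from 0.103 to 0.966. In 12 members (38.7%) every KO tumor lay below every WT tumor, against 3.41% of all genes that were lower without overlap. DESeq2 called 12 members, all lower, and 0.624% of all genes were called lower by DESeq2. The median difference of the list was -0.59, beside 0.01 for all genes. Averaged over the 31 members and set relative to the mean of the 8 tumors, the log2 level was 0.38, 0.01, 0.34 and 0.36 in the WT tumors and -0.23, -0.36, -0.13 and -0.36 in the KO tumors. The lowest WT tumor, replicate 2, thus lay above the highest KO tumor, and KO replicate 4 lay within the range of the other KO tumors. Without KO replicate 4 the median was -0.59 and 13 members did not overlap, all lower.

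Ifit3, which binds viral RNA together with Ifit1, led the list. It had 1538, 1198, 1657 and 1585 normalized counts in WT tumors and 689, 742, 878 and 687 in KO tumors, a difference of -0.99 ± 0.15 (SE, adjusted p = 0.103). The highest KO tumor was well below the lowest WT tumor. The guanylate-binding proteins, GTPases that attack pathogen vacuoles, were close behind. Gbp3 had 472, 436, 489.6 and 556 counts in WT tumors against 331, 265, 264 and 257 in KO tumors (-0.81 ± 0.15, adjusted p = 0.156). Gbp2 had 458, 401, 407 and 446 against 275, 283, 283 and 237 (-0.67 ± 0.14, adjusted p = 0.21). In Gbp2 the gap between the groups was wider than the range within either group. Oasl2, an inhibitor of viral replication of the oligoadenylate synthetase family, had 1428, 1378, 1579 and 1715 against 933, 779, 1112 and 660.0 (-0.83 ± 0.17, adjusted p = 0.21).

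Sensors and regulators of the same response followed. Zbp1, a sensor of Z-form nucleic acid, had 644, 427, 535 and 488 counts in WT tumors against 309.6, 319.6, 348 and 309 in KO tumors. Usp18, which removes Isg15 from proteins and dampens interferon signaling, had 447, 329, 410.0 and 405 against 187, 219.7, 314 and 213. Irf7, the transcription factor that amplifies type I interferon, had 2464, 1739, 2181 and 2287 against 1262, 1512, 1398 and 1547. Their adjusted p was 0.21 in each case, and DESeq2 called all 3. Isg15, the ubiquitin-like protein itself, had 2928, 1844, 3173 and 2162 against 1581, 1606, 1694 and 1651 (-0.60 ± 0.17, adjusted p = 0.26). The KO tumors lay close together in Isg15, and the lowest WT tumor was only slightly above them. Dhx58, Ifi27l2a, Ifit3b and Ddx58 completed the 12 members without overlap, at differences of -0.63, -0.73, -0.91 and -0.40.

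The lower level did not extend over all members to the same degree. Cxcl10, a chemokine for T cells, had 86.6, 53.7, 66.2 and 91.7 against 56.1, 83.7, 71.0 and 77.6, and its difference of -0.03 ± 0.24 changed sign when single tumors were left out. In Bst2 the difference was -0.12 with 8 libraries and 0.00 without KO replicate 4, where 30 of 31 members were lower. In the other experiment of the series, in which WT mice received anti-IL-38 (6 tumors) or an isotype IgG1 (5 tumors), 24 of the same 31 members were higher with anti-IL-38, none at an unadjusted p under 0.05 in either direction, and the median was 0.17. The difference between the knockout and the antibody effect was tested as an interaction over 19 libraries, and no member passed it (smallest adjusted p = 0.524). 1 gene of 16563 did (0.00604%), which was Gm10093.

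**Figure D1:**
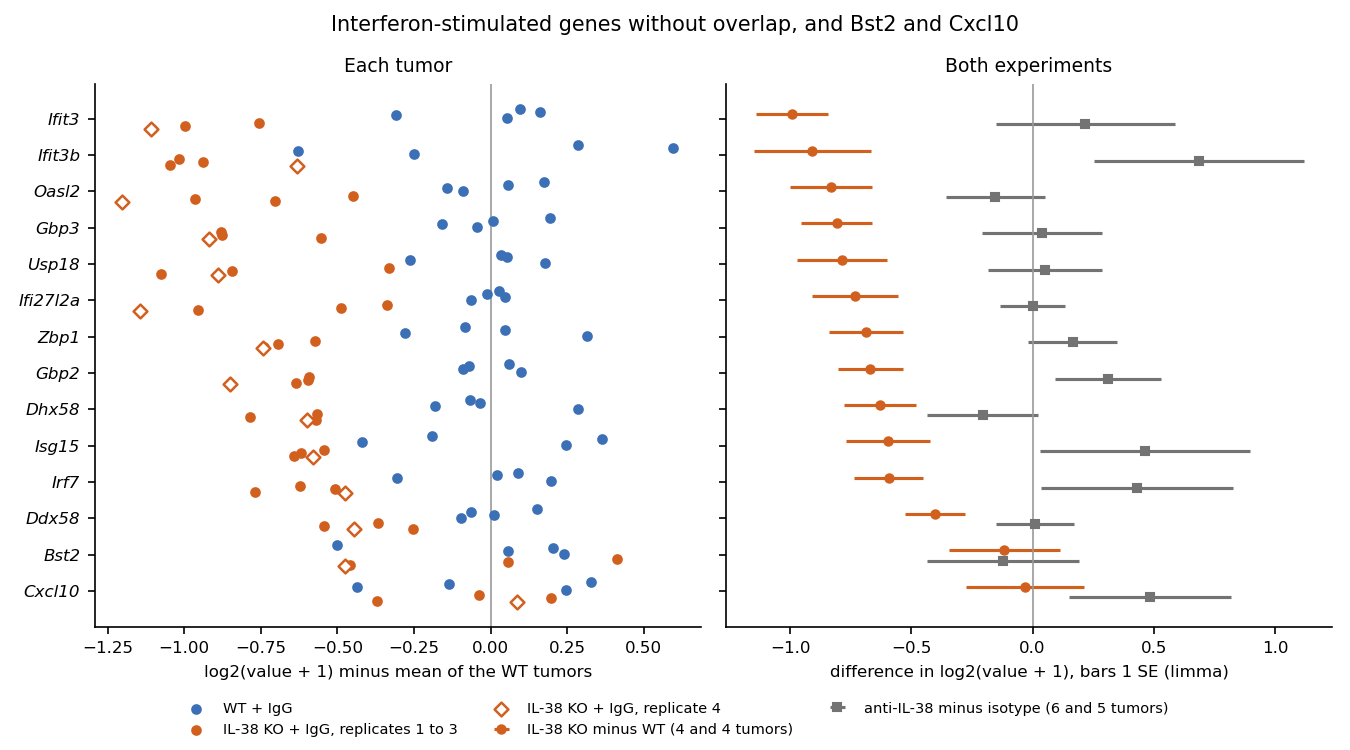
Levels of the 12 interferon-stimulated genes whose groups do not overlap, and of Bst2 and Cxcl10. On the left each point is 1 tumor, as log2(normalized count + 1) minus the mean of the 4 WT tumors, and on the right points are the differences between KO and WT tumors and between anti-IL-38 and isotype tumors, with bars of 1 SE from limma. The differences between KO and WT run from -0.99 in Ifit3 to -0.03 in Cxcl10, and antibody differences lie on both sides of 0.

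Levels of cells that express many interferon-stimulated genes are given beside that list. In the T and cytotoxic cell list, 21 of 25 members were lower in KO tumors and 4 higher, with a median of -0.54, and -0.80 without KO replicate 4. At an unadjusted p under 0.05, 2 of the 25 were lower, against 5.40% of all genes. DESeq2 gave no adjusted p for 12 of the 25. The mean level of that list ranged from -0.40 to 0.89 in WT and from -0.76 to 0.23 in KO tumors. Cd3e, a subunit of the T cell receptor complex, had 19.9, 19.8, 25.1 and 29.6 counts in WT tumors and 3.74, 2.70, 34.7 and 5.64 in KO tumors, so that 3 KO tumors lay below all WT tumors and 1 above. Ccl5, a chemokine of cytotoxic cells, was the only member without overlap (4%), against 3.41% of all genes that were lower without overlap. It had 191, 184, 191 and 285 against 87.9, 118, 121 and 145 (-0.84 ± 0.21, adjusted p = 0.21), and DESeq2 called it. Of 6 members of the γδ and IL-17 T cell list that were tested, 4 were lower and 2 higher, and none reached an unadjusted p under 0.05. Trdc, the constant part of the δ chain, had 26.9, 12.3, 26.9 and 2.04 counts against 11.2, 5.40, 9.82 and 0. The difference in Trdc was -1.30 ± 0.94. Sox13 and Zbtb16, transcription factors found in these cells, had higher counts than Trdc and differed by -0.32 ± 0.32 and -1.16 ± 0.58. Which cells their counts came from cannot be told in whole tumors.

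Macrophage markers were lower in 17 of 20 members, 4 of them at an unadjusted p under 0.05, against 5.40% of all genes that were lower at that p. The median was -0.44, and -0.22 without KO replicate 4, whose level in that list was -1.04 against -0.09 to 0.25 in the other KO tumors and 0.12 to 0.52 in WT tumors. Fcgr1, a high-affinity receptor for IgG, was the 1 marker without overlap (5%), against 3.41% of all genes that were lower without overlap. It had 381, 444, 388 and 361 counts against 268, 271, 332 and 254. Csf1r, the receptor for the growth factor of macrophages, had 6935, 8581, 6656 and 5630.0 against 4369.7, 4589, 6624 and 1908, with the lowest value in KO replicate 4. Type 1 dendritic cell genes split, with 8 higher and 9 lower and a median of -0.38, and -0.20 without KO replicate 4. At an unadjusted p under 0.05, 3 were higher and 6 lower with 8 libraries, against 6.73% and 5.40% of all genes. Without that tumor 4 were higher and 2 lower at that p, against 8.04% and 5.88%. Without overlap, 1 was higher and 3 lower with 8 libraries, against 3.66% and 3.41% of all genes. When that tumor was left out, 3 were higher and 3 lower without overlap, against 7.31% and 5.37%. Among the lower ones, Wdfy4, which these cells need to cross-present antigen, had 262, 249, 243 and 242 against 167, 163, 205 and 93.1, and the lineage factor Batf3 had 105, 146, 90.4 and 65.2 against 43.0, 68.4, 66.5 and 14.1. Zbtb46, a factor of conventional dendritic cells, did not overlap either, at 119.5, 99.0, 90.4 and 109 against 71.1, 75.6, 63.4 and 81.8. Among the higher ones, the adhesion molecule Cadm1 had 1081, 1097, 1655 and 1076 against 1853, 2252, 1314 and 1512, with overlap (0.49 ± 0.20, adjusted p = 0.364). Snx22 had 20.9, 40.5, 25.1 and 16.3 against 44.9, 79.2, 49.8 and 25.4, and KO replicate 4 lay among the WT tumors. Xcl1, a chemokine that attracts these cells and is made by others, was the 1 higher gene without overlap, at 16.9, 12.3, 11.6 and 12.2 against 25.3, 18.9, 46.1 and 22.6 (0.97 ± 0.38, adjusted p = 0.351). None of the 17 was called by limma or edgeR, or by DESeq2, which gave no adjusted p for 3 of them. Their part in the level of interferon-stimulated genes was not tested.

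B and plasma cell markers were higher in 11 of 13 members, and 1 library carried much of this. The list level was 2.38 in KO replicate 4 against -0.74 to 0.19 in the other KO tumors and -0.66 to 0.11 in WT tumors. The median of 0.53 was 0.19 without that tumor. Jchain, which links IgA and IgM chains, had 59.9, 41.4, 37.8 and 628 counts in KO tumors and 9.17 to 41.5 in WT tumors. Igha, the heavy chain of IgA, was higher in each KO tumor, at 342, 253, 424 and 286 against 94.6, 85.8, 227 and 63.2 (1.61 ± 0.34, adjusted p = 0.21), and DESeq2 called it with and without KO replicate 4. Neutrophil markers split 7 to 7.

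Besides interferon-stimulated genes, the 10 protein-coding genes that were lower with the smallest p among those without overlap included enzymes and binding proteins. They comprise Ifit3, Gbp3, Gbp2 and Oasl2 above, and R3hdml, Crabp1, Arg1, Rmnd1, Cryzl2 and Cdo1. DESeq2 called all 10 with 8 and with 7 libraries, and limma gave adjusted p-values of 0.103 to 0.21. In an exact permutation test of single genes, two-sided over 70 groupings, each had p = 0.0286, which is the smallest value that 4 against 4 tumors can give and which the choice of genes without overlap fixes. R3hdml, a secreted protein of the CRISP family, had 138, 60.3, 84.1 and 127 counts in WT tumors and 21.5, 15.3, 11.3 and 23.97 in KO tumors, the largest difference among the 10 on the log2 scale (-2.42 ± 0.35, adjusted p = 0.103). Crabp1, which carries retinoic acid in the cytosol, had 203, 132, 166 and 164 against 51.5, 57.6, 60.4 and 94.5 (-1.34 ± 0.24, adjusted p = 0.151). In both genes KO replicate 4 was the KO tumor closest to the WT tumors.

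Arg1, the arginase of myeloid cells that consumes arginine, had 821, 689, 827 and 444 counts in WT tumors against 353, 287, 356 and 251 in KO tumors (-1.13 ± 0.21, adjusted p = 0.156). Its 4 KO values, and those of Cryzl2, also lay below all 11 tumors of the antibody experiment, which were of WT genotype. Only these 2 of the 10 lower genes, and 0 of the 10 higher genes described next, lay beyond all tumors of WT genotype. Cdo1, which degrades cysteine, had 437, 415, 393 and 365 against 249, 134, 80.0 and 196 (-1.40 ± 0.29, adjusted p = 0.21). In the antibody experiment Cdo1 lay the other way, at 1.84 ± 0.54. Rmnd1, a factor of mitochondrial translation, had 125, 121, 115 and 144 against 62.7, 55.8, 76.3 and 45.1. Cryzl2 had 101, 98.0, 96.7 and 117 against 32.7, 49.5, 62.7 and 42.3. Over the 10 genes, 3 had the same sign with anti-IL-38 as in KO tumors.

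The 10 protein-coding genes that were higher with the smallest p among those without overlap held Wnt, growth and membrane genes. They were Fzd5, Myc, Tfrc, Fbln2, Akap12, Tmem54, Large2, Eva1a, Man1a and Col25a1, with adjusted p-values of 0.103 to 0.151, and DESeq2 called all 10 with 8 and with 7 libraries. Fzd5, a receptor for Wnt ligands, had 160.3, 156, 182 and 167 counts in WT tumors against 293, 438, 487 and 424 in KO tumors (1.28 ± 0.18, adjusted p = 0.103). Myc, a transcription factor of cell growth, had 59.8, 44.3, 51.0 and 69.3 against 165, 137, 236 and 139.6 (1.56 ± 0.24, adjusted p = 0.103). In both genes the lowest KO tumor was well above the highest WT tumor. Tfrc, the transferrin receptor that takes up iron, had 589.6, 671, 1045 and 662 against 1533, 1599.8, 1531 and 1677 (1.13 ± 0.17, adjusted p = 0.103), with little spread among the KO tumors.

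Fbln2, a matrix protein of the fibulin family, had 397, 494, 413 and 487 counts in WT tumors against 767, 1058, 1321 and 880.0 in KO tumors. Akap12, a scaffold for protein kinase A, had 72.7, 137, 273 and 115 against 441, 810.2, 612 and 1341, at a difference of 2.46 ± 0.40. Eva1a, a membrane protein tied to autophagy, had the largest difference of the 10 from the lowest level, with 5.98, 5.65, 8.95 and 15.3 counts against 48.6, 29.7, 107 and 74.7 (2.67 ± 0.46). Large2, which extends the glycan of dystroglycan, had 162, 90.5, 163 and 142 against 346, 311, 375 and 268. Man1a, a mannosidase that trims N-glycans in the Golgi, had 192, 154, 204 and 249.7 against 334, 438, 400.2 and 420.2. Tmem54 and Col25a1, a membrane-bound collagen, differed by 1.12 ± 0.19 and 1.26 ± 0.22. Of the 10, 8 had the same sign with anti-IL-38, Eva1a at 2.05 ± 0.51 and Large2 at 0.84 ± 0.40. Tfrc and Akap12 were the exceptions, at -0.35 ± 0.46 and -0.70 ± 0.60.

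**Figure D2:**
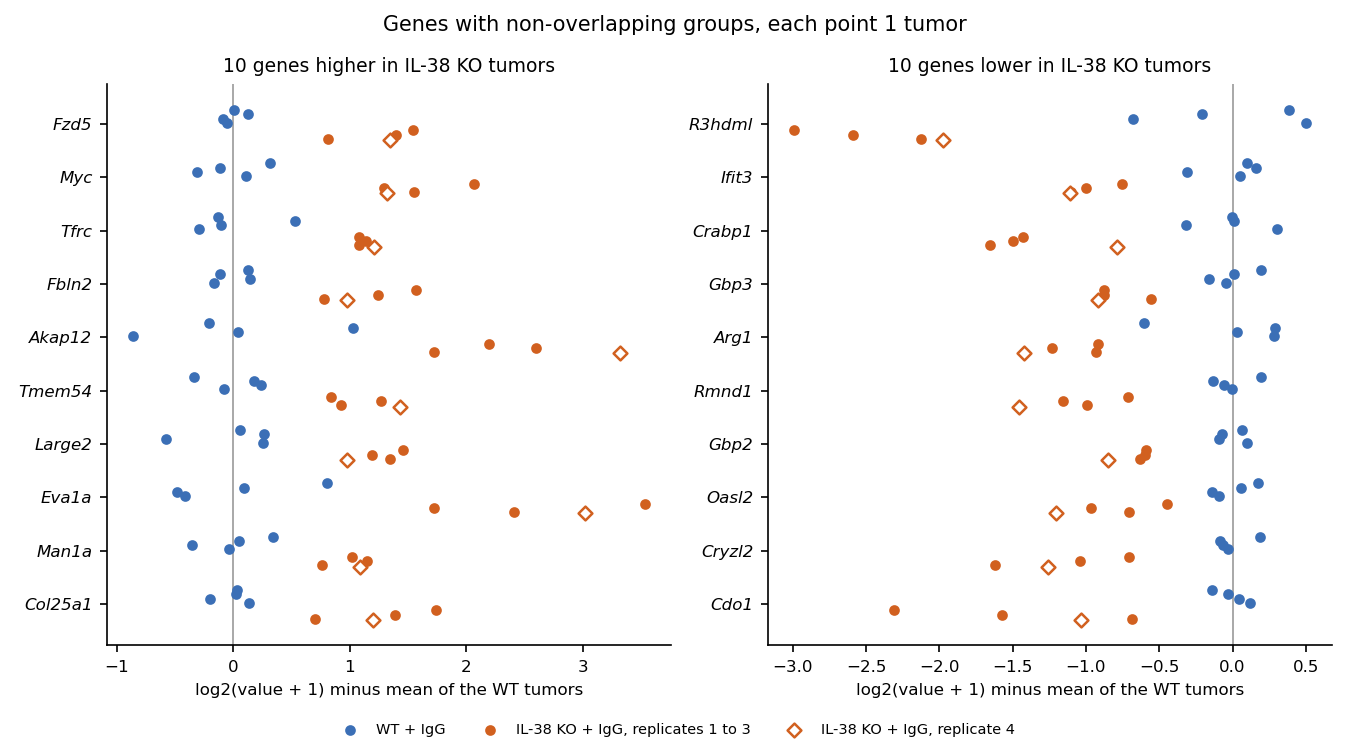
The 10 higher and the 10 lower protein-coding genes with the smallest p among those whose groups do not overlap. Each point is 1 tumor, as log2(normalized count + 1) minus the mean of the 4 WT tumors, and open diamonds are KO replicate 4. In each row the KO points lie on 1 side of the WT points, which the choice of the genes required.

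Wnt receptors and targets were higher in most members. Wnt ligands bind Frizzled and Lrp co-receptors at the membrane, and Lgr and Znrf3 tune how many receptors stay there. Of 29 members tested, 23 were higher in KO tumors and 6 lower, 14 higher and none lower at an unadjusted p under 0.05 (6.73% of all genes were higher at that p), and none passed an adjusted p of 0.05. In 8 members (27.6%) every KO tumor was above every WT tumor, against 3.66% of all genes. DESeq2 called 6 members, all higher, against 1.64% of all genes called higher. The median was 0.49, and 0.56 without KO replicate 4. Among the receptors, Lgr4, which binds R-spondin, had 186, 174, 282 and 271 counts in WT tumors against 395, 402, 389.6 and 420.2 in KO tumors (0.84 ± 0.18, adjusted p = 0.21). Lrp6, a co-receptor, had 961, 946, 1313 and 1470.4 against 2494, 1894, 1773 and 1568 (0.73 ± 0.19, adjusted p = 0.23). Znrf3, a ubiquitin ligase that removes Frizzled receptors, had 156, 114, 220.2 and 196 against 325, 342, 350.4 and 248. In these genes and in Fzd5 the KO values stayed above the WT values in every tumor.

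Of the other members, Axin2, a feedback inhibitor and a widely used readout of the canonical pathway, had 9.96, 12.3, 13.4 and 5.095 counts against 16.8, 18.9, 13.6 and 23.97 (0.84 ± 0.43, adjusted p = 0.45), without overlap but with 13.4 in the highest WT and 13.6 in the lowest KO tumor. Lgr5, a stem cell receptor, had 37.8, 18.8, 75.2 and 44.8 against 50.5, 41.4, 95.9 and 128, and the groups overlapped. Wif1, a secreted inhibitor of Wnt ligands, had 242, 157, 504 and 399 against 625, 1458, 2042 and 275, so that KO replicate 4 lay among the WT tumors. Ptk7, a co-receptor of the pathway, was called by DESeq2 although the groups overlapped at 739.8 in WT and 714 in KO tumors. With anti-IL-38, 24 of the 29 members were higher, 5 of them at an unadjusted p under 0.05, with a median of 0.44.

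Genes of ER folding and secretion were higher in 28 of 30 members and lower in 2. At an unadjusted p under 0.05, 9 were higher and none lower, against 6.73% of all genes that were higher, and none passed an adjusted p of 0.05. In 6 members (20%) the groups did not overlap, all higher, against 3.66% of all genes. Without KO replicate 4, 12 did not overlap, all higher, against 7.31% of all genes. The median was 0.28, and 0.33 without that tumor, and DESeq2 called 4 members, all higher, against 1.64% of all genes. Ssr3 and Ssr1, subunits of the complex beside the channel through which proteins enter the ER, were called by DESeq2. Ssr3 had 2168, 1963, 2786 and 2127 counts in WT tumors against 3939, 3355, 3711 and 3445 in KO tumors (0.69 ± 0.14, adjusted p = 0.21). Of the disulfide isomerases, Txndc5 had 218, 216, 386 and 365 against 617, 556, 518 and 488 (0.93 ± 0.21). Pdia6, whose promoter is given above, had 5434, 4065, 6199.8 and 5374 against 7369, 7018, 9901 and 7765 (0.61 ± 0.17). The chaperone partner Dnajb11 and the secreted factor Manf did not overlap, at differences of 0.53 and 0.62. Xbp1, the transcription factor that raises ER capacity, had 5022, 5173, 6890.0 and 9119 against 10491, 8424, 8506 and 9455, and WT replicate 4 overlapped with the KO tumors. The log2 level of the ER list was -0.24, -0.25, 0.02 and -0.13 in WT tumors and 0.21, 0.08, 0.33 and -0.01 in KO tumors, with overlap. Plasma cells also express many of these genes, and the B and plasma cell level was -0.66, 0.11, -0.50 and -0.60 in WT tumors and -0.74, -0.19, 0.19 and 2.38 in KO tumors. Its part in the ER list was not tested.

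Cholesterol and fatty acid synthesis was mixed, with 17 of 28 members higher and 11 lower and a median of 0.18. At an unadjusted p under 0.05, 10 were higher and 2 lower, against 6.73% and 5.40% of all genes, and none passed an adjusted p of 0.05. DESeq2 called 4, all higher, against 1.64% of all genes. Without overlap, 2 were higher and 1 lower (10.7%), against 7.06% of all genes. Elovl6, which elongates fatty acids, had 503, 476, 686 and 605 counts in WT tumors against 1224, 894, 891 and 711 in KO tumors (0.70 ± 0.18). Srebf1, the transcription factor of this program, had 1084, 663, 1766 and 1994 against 3669, 3308, 2546 and 1795, and Scd2, a desaturase, had 2016, 2023, 3114 and 2774 against 5205, 4677, 6122 and 2691. In Srebf1 and Scd2 KO replicates 1 to 3 lay above all WT tumors and KO replicate 4 lay among them. Pmvk, a kinase of the same route, was lower without overlap, at 498, 602, 506 and 450.4 against 349.9, 392, 353 and 402. Without KO replicate 4, 9 members were higher and 2 lower without overlap, against 7.31% and 5.37% of all genes, and DESeq2 called 9 members, all higher, against 2.40%.

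Epithelial markers did not move as 1 group. Of 24 luminal markers, 15 were higher and 9 lower, with a median of 0.18. Epcam, which marks epithelial cells, was present at 6225 to 11492 counts in WT tumors and 9437 to 12198 in KO tumors. Krt7 and Krt19, keratins of luminal cells, were lower in every KO tumor. Krt7 had 1185, 933, 1288 and 1015 counts in WT tumors against 712, 790.4, 658 and 612 in KO tumors (-0.67 ± 0.15, adjusted p = 0.21), and Krt19 had 1504, 1415, 1969 and 1559 against 723, 871, 1092 and 1213 (-0.74 ± 0.18). Cldn4, a tight junction protein, was higher in every KO tumor, at 555, 623, 793 and 598 against 899, 1250.5, 2271 and 1278 (1.08 ± 0.24, adjusted p = 0.21). DESeq2 called these 3 genes, 1 higher and 2 lower of the 24, against 1.64% and 0.624% of all genes. Without overlap, 1 member was higher and 3 were lower, Esr1 among the lower, against 3.66% and 3.41% of all genes. Esr1, the estrogen receptor, had 192, 135, 141 and 133 against 115, 105, 80.0 and 98.7 (-0.58 ± 0.20, adjusted p = 0.314), and Pgr, the progesterone receptor, had 119, 317, 281 and 381 against 247, 51.3, 101 and 55.0 with overlap. Of 16 basal and myoepithelial markers, 14 were lower, with a median of -0.39. The contractile genes Acta2, Cnn1 and Mylk were called lower by DESeq2, against 0.624% of all genes. The groups did not overlap in 1 of the 16 (6.25%), which was lower, against 3.41% of all genes. Acta2, which smooth muscle and fibroblasts share with myoepithelium, had 6240.4, 2591, 3611 and 4282 against 2207, 1378, 2317 and 2131 (-1.01 ± 0.26, adjusted p = 0.21). Milk protein genes were higher in 15 of 17 members, with a median of 0.18 and no member without overlap.

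Markers of tissue around the tumor had a wide spread between tumors, and no adipocyte or muscle gene passed an adjusted p of 0.05. Adipocyte genes had a lower mean in 15 of 17 members, 6 at an unadjusted p under 0.05 (5.40% of all genes). In 1 (5.88%), which was lower, the groups did not overlap, against 3.41% of all genes. The median was -0.98, and -0.49 without KO replicate 3. Lipe, the hormone-sensitive lipase, had 443, 579.6, 363 and 392 counts in WT tumors against 279.7, 270.1, 263 and 282 in KO tumors (-0.68 ± 0.16, adjusted p = 0.21). Fabp4, a fatty acid carrier, had 1149, 1333, 1034 and 1728 against 712, 646, 309.6 and 1049, which overlapped slightly. Skeletal muscle genes had a higher mean in 19 of 19 members, 4 at an unadjusted p under 0.05 (6.73% of all genes). In 1 (5.26%) the groups did not overlap, against 3.66% of all genes that were higher without overlap. Without KO replicate 4, 10 members did not overlap and 10 reached that p, all higher, against 7.31% and 8.04% of all genes. The median was 1.87, 2.86 without KO replicate 4 and 0.84 without WT replicate 1. The level of that list was -3.50 in WT replicate 1 against -0.23 to 0.13 in the other WT tumors, and -1.58 in KO replicate 4 against 0.50 to 2.70 in the other KO tumors. Ckm, the creatine kinase of muscle, had 0, 5.65, 27.7 and 4.08 against 42.1, 169, 126 and 14.1. Endothelial genes had a median of 0.20 over 18 members, with Vwf lower in every KO tumor at a difference of -0.73 ± 0.23. Vwf was the only member without overlap (5.56%), against 3.41% of all genes that were lower without overlap. Fibroblast and matrix genes had a median of 0.09 over 26 members, and nerve and Schwann cell genes had 0.39 over 9.

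Genes of antigen presentation had a lower mean in most members, and none passed an adjusted p of 0.05. Of 21 genes of MHC class I and II and peptide supply, 16 were lower and 5 higher, with a median of -0.12. It was -0.24 without WT replicate 2, -0.22 without KO replicate 1 and -0.21 without KO replicate 3. In 3 members (14.3%) the groups did not overlap, all lower, against 3.41% of all genes. Psmb8, a subunit of the immunoproteasome, had 2068, 1966, 2569 and 2176 counts in WT tumors against 1218, 1526, 1356 and 1747 in KO tumors (-0.59 ± 0.15, adjusted p = 0.21), and DESeq2 called it. Psmb10, another such subunit, had 1011, 832, 1096 and 991 against 769.9, 662, 772 and 783. H2-DMb1, which loads peptides onto class II molecules, had 1049.7, 1111, 985 and 865 against 737, 689.6, 829.9 and 653. Tap2, which carries peptides into the ER, lay the other way at 389, 116, 517 and 398 against 973, 671, 1235 and 508, and DESeq2 called it higher. Chemokine genes were lower in 15 of 22 members, with a median of -0.24 and no member without overlap.

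Of 15 IL-1 family members and receptors tested, 11 were lower and 4 higher in KO tumors. Il1a, the cytokine IL-1α, was the only one without overlap (6.67%), against 3.41% of all genes that were lower without overlap. It had 15.9, 42.4, 14.3 and 21.4 counts in WT tumors against 9.35, 6.30, 10.6 and 2.82 in KO tumors (-1.56 ± 0.52, adjusted p = 0.304). Il1rap, the co-receptor shared by IL-1, IL-33 and IL-36, lay the other way at 182, 152, 253 and 218 against 265, 231, 440.2 and 258 (0.54 ± 0.23, adjusted p = 0.386). Il1rn, the receptor antagonist, had 1259, 1638, 1103 and 969 against 833.5, 1049, 1119 and 575, with overlap. None was called by limma or edgeR, or by DESeq2, which gave no adjusted p for 5 of them, Il1a among these.

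Mitochondrially encoded genes were higher in 8 of 8 members, while nuclear genes of oxidative phosphorylation were lower in 63 of 78. The log2 level of the mitochondrial list was -1.003, -0.39, -0.32 and -0.04 in WT tumors and 0.68, 0.22, 0.70 and 0.14 in KO tumors, so that the groups did not overlap. mt-Cytb, a subunit of complex III, had 37319.9, 38142, 57826 and 62825 counts in WT tumors against 108067, 80750.0, 82601 and 68504 in KO tumors (0.81 ± 0.27, adjusted p = 0.295). mt-Nd3, of complex I, had 0, 7.54, 9.85 and 36.7 against 168, 56.7, 181 and 139.6, and DESeq2 called both. The list level leans on mt-Nd3, which is low in counts and had the largest difference of the 8 members, at 4.03. The median of the list was 0.45. Taken singly, 2 of the 8 members (25%) did not overlap, both higher, against 3.66% of all genes. Mitochondrial reads were 4.78% to 6.04% of all reads in WT tumors, 6.76% to 8.88% in KO replicates 1 to 3 and 4.73% in KO replicate 4. Among the nuclear genes 12 were lower and 1 higher at an unadjusted p under 0.05, against 5.40% and 6.73% of all genes, with a median of -0.22. Without overlap, 7 were lower and 1 higher (10.3%), against 7.06% of all genes. Ndufa5, of complex I, had 1964, 1771, 2044 and 2029 against 1559, 1494, 1232 and 1625 (-0.41 ± 0.13, adjusted p = 0.29). Atp5o, of the ATP synthase, had 6309, 6823, 6209 and 5507 against 4515, 4984, 4821 and 4576. Sdhd, of complex II, was the exception that was higher in every KO tumor, at 34.9, 43.4, 32.2 and 55.0 against 131, 85.5, 60.4 and 107. Cytosolic ribosomal protein genes were lower in 62 of 80 members, with a median of -0.16. These lists have members with many near-identical copies in the genome, and how reads were shared between copies was not tested.

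In 2 such cases a processed pseudogene and the gene it copies could be set side by side, chosen after the values were seen. Gm10093 had 9.96, 12.3, 12.5 and 43.8 counts in WT tumors against 227, 268, 510.5 and 196 in KO tumors, and rose by 4.03 ± 0.45 (adjusted p = 0.0298). Its transcript shares 1121 of 1395 runs of 50 bases (80.4%) with Hdac1, a histone deacetylase, which had 621, 507, 534 and 461 counts in WT tumors against 345, 343, 187 and 322 in KO tumors (-0.86 ± 0.21, adjusted p = 0.21). Their sum was 550.5 ± 56.7 (SD, n = 4) in WT tumors and 599.8 ± 75.8 in KO tumors, a log2 difference of 0.12. Gm10036 shares 322 of 485 such runs (66.4%) with Rpl11, a protein of the large ribosomal subunit. It had 595, 808, 627 and 1138 counts in WT tumors against 4914, 5073, 9716 and 206 in KO tumors, and Rpl11 had 12444, 12288, 12318 and 12983 against 5583, 6807, 1358 and 11696. Where Gm10036 was highest, in KO replicate 3, Rpl11 was lowest. Their sum was 13300.0 ± 551 in WT tumors and 11338 ± 680.1 in KO tumors, a log2 difference of -0.23, and the sums did not overlap, at 12945 to 14121 against 10497 to 11902. The share of the sum on Gm10036 was 4.56% to 8.06% in WT tumors, 46.8%, 42.7% and 87.7% in KO replicates 1 to 3, and 1.73% in KO replicate 4. Values of a pseudogene and its parent are uncertain where reads can align to both, and how the reads were shared was not tested.

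Most cell cycle genes had a slightly higher mean in KO tumors, and none passed an adjusted p of 0.05. Of 30 mitosis genes, 27 had a higher mean, 4 at an unadjusted p under 0.05 against 6.73% of all genes, with a median of 0.18. Of 30 DNA replication genes, 22 had a higher mean, 2 at that p, with a median of 0.13, and 0.05 without KO replicate 4. The groups did not overlap in 1 mitosis gene (3.33%) and 2 replication genes (6.67%), all higher, against 3.66% of all genes. The list levels overlapped, at -0.16 to 0.01 in WT and -0.16 to 0.28 in KO tumors for mitosis, and at -0.17 to 0.02 and -0.22 to 0.20 for replication. Ube2c, which marks mitotic proteins for degradation, had 987, 832, 968 and 700.1 counts in WT tumors against 1002, 1099, 1250.5 and 1111 in KO tumors (0.36 ± 0.15, adjusted p = 0.359). Fen1, a nuclease of replication, had 400.4, 351, 486 and 419.8 against 571, 558, 533 and 628. With anti-IL-38 the medians of the mitosis and replication lists were -0.42 and -0.37, with 30 and 27 of 30 members lower. No member of either list passed the interaction test, whose smallest adjusted p was 0.524 in both. Immediate early and stress genes, which respond within minutes to growth factors and to tissue handling, were lower in 19 of 24 members. The tumors were dissociated before extraction, and its part in these genes was not tested. Fosb had 61.7, 188, 118 and 149.8 against 37.4, 33.3, 69.5 and 22.6 (-1.65 ± 0.40, adjusted p = 0.21), and Klf4 had 403, 528, 323 and 359 against 237, 251, 282 and 228. Nr4a1, in contrast, was higher without overlap at 49.8, 114, 90.4 and 103 against 117, 152, 265 and 126. EGFR family genes were higher in 11 of 14 members, with a median of 0.35, and glycolysis and hypoxia genes split 13 to 12, with a median of 0.08. Car9, an enzyme induced by low oxygen, was called higher by DESeq2, although the groups overlapped at 180.4 in WT and 129 in KO tumors.

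**Figure D3:**
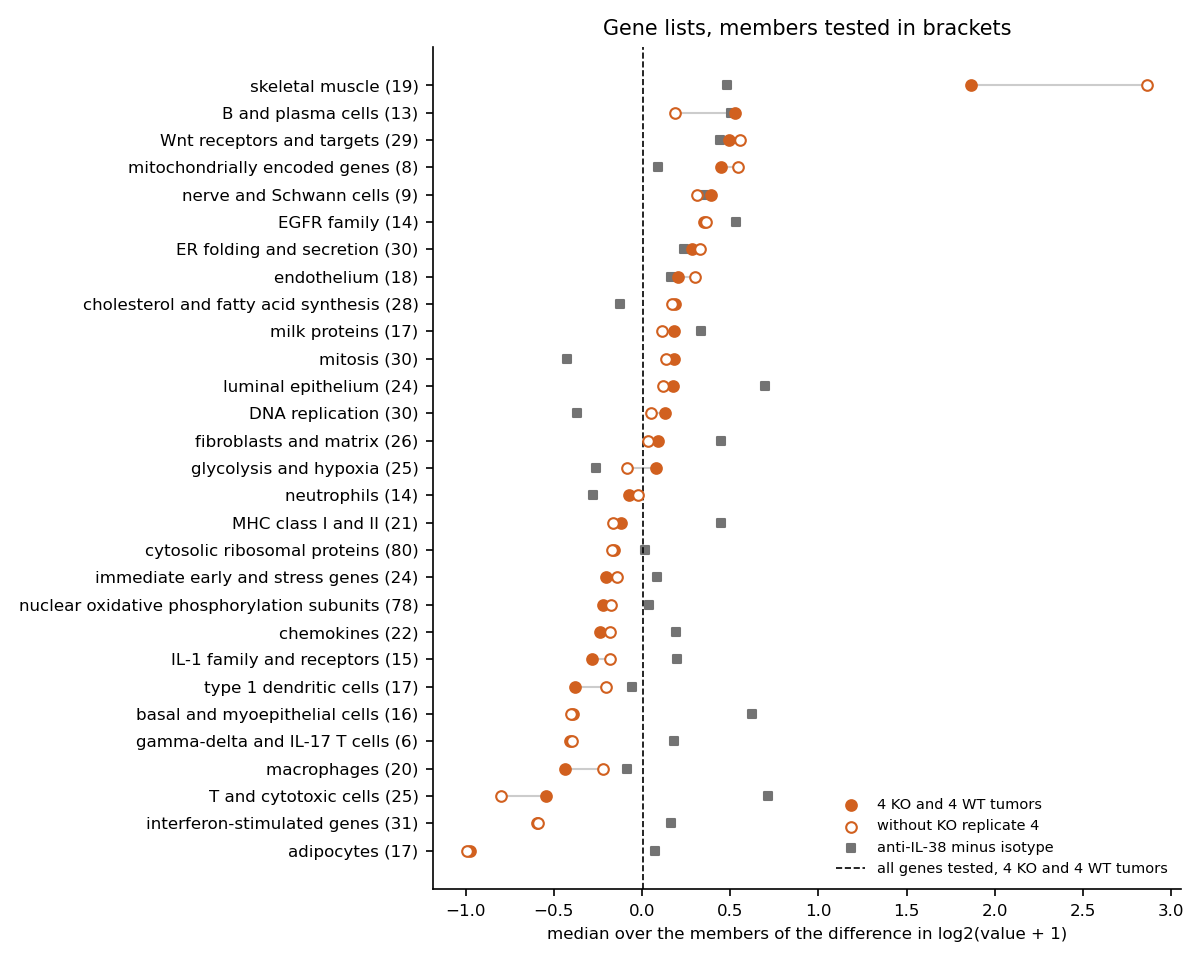
Medians of 29 gene lists. Filled circles are the median over the tested members of the difference in log2(normalized count + 1) between 4 KO and 4 WT tumors, open circles leave out KO replicate 4, and squares are anti-IL-38 against isotype tumors. The list of interferon-stimulated genes lies at -0.59 with and without KO replicate 4, while skeletal muscle moves from 1.87 to 2.86 and T and cytotoxic cells from -0.54 to -0.80.

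**Figure D4:**
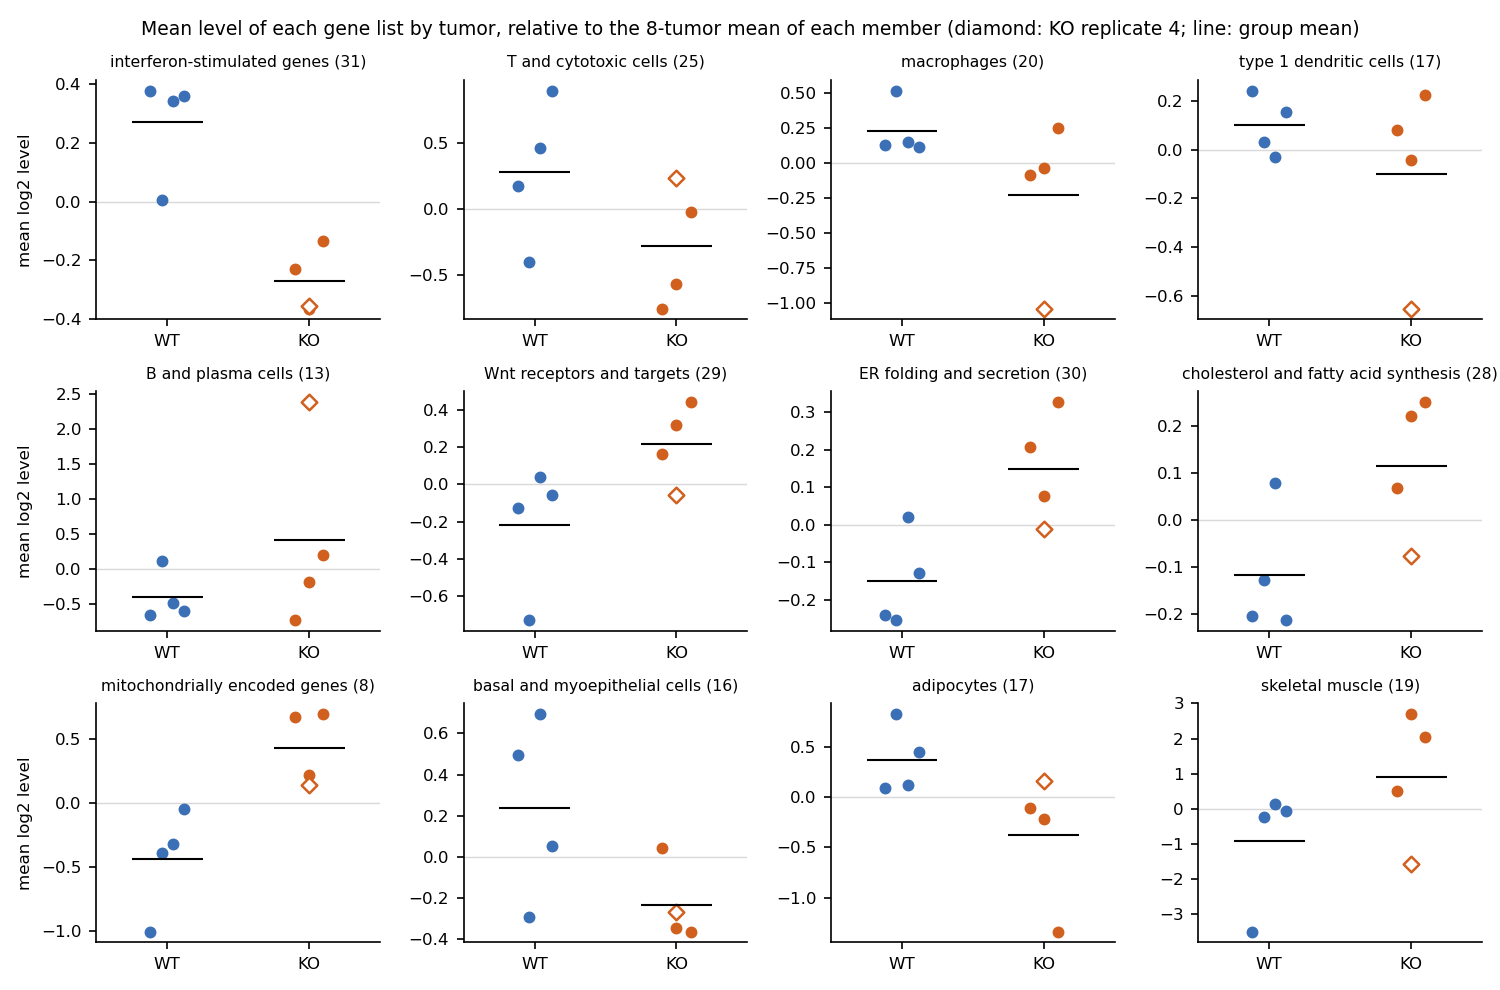
Mean log2 level of 12 gene lists by tumor, relative to the 8-tumor mean of each member. Points are tumors, diamonds are KO replicate 4 and lines are group means. Groups do not overlap for interferon-stimulated genes and for mitochondrially encoded genes. The mitochondrial level leans on mt-Nd3, a gene of low counts with the largest difference in that list. KO replicate 4 lies far from the other tumors for macrophages at -1.04 and for B and plasma cells at 2.38.

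Leaving out KO replicate 4 changed which genes the count-based tools called. DESeq2 then called 483 of 15483 genes (3.12%), of which 371 (2.40%) were higher and 112 (0.723%) lower, and 252 genes were called with 8 and with 7 libraries, which are 82.6% of the former and 52.2% of the latter. edgeR called 16 of 16563 genes (0.0966%), 13 (0.0785%) higher and 3 (0.0181%) lower. Of the genes above, these included Gm10093, Fzd5, Myc, Fbln2 and Large2 among the higher and R3hdml, Crabp1 and Ifit3 among the lower. The others are named after their values were seen, and in each KO replicate 4 lay below KO replicates 1 to 3. Tenm3, a cell adhesion receptor of the teneurin family, had 67.7, 54.7, 137 and 69.3 counts in WT tumors against 305, 425 and 465 in KO replicates 1 to 3 and 45.1 in replicate 4. Extl1, an enzyme of heparan sulfate synthesis, had 58.8, 61.3, 90.4 and 87.6 against 243, 232 and 267, and 91.7. Gjb2, a gap junction protein, had 613, 779, 1002 and 1240.1 against 2260.2, 2047 and 3070.4, and 1307. Lbp, which binds bacterial lipopolysaccharide, had 1724, 1871, 2260.3 and 1779 against 4212, 3136 and 4834, and 1871. Smpdl3b, Tspan6 and Col9a1 had 334, 382 and 1898 counts in KO replicate 4, against 342 to 536, 215 to 453 and 1466 to 1945 in WT tumors. Gm10036, given above, was far below the WT tumors in that library. In these 8 genes the difference rests on KO replicates 1 to 3.

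**Figure D5:**
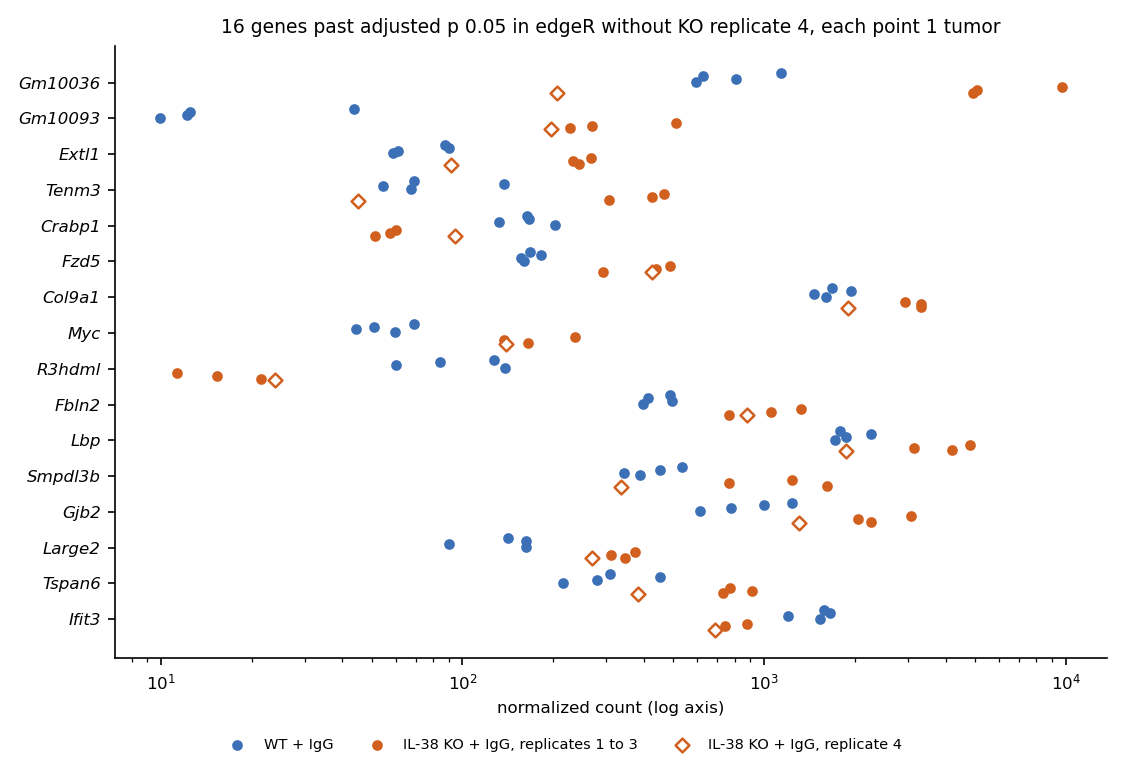
The 16 genes that edgeR called without KO replicate 4. Each point is the normalized count of 1 tumor on a log axis, and open diamonds are KO replicate 4, which was not in that fit. In Tenm3 the diamond lies at 45.1, below all WT tumors, and in Ifit3 it lies at 687, below all KO replicates 1 to 3.

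Genes next to Il1f10 were examined, since a knockout carries the flanking sequence of the line in which it was made. Of 126 genes tested within 5 Mb on chromosome 2, 62 were higher and 64 lower, and 11 did not overlap (8.73%), against 7.06% of all genes and 5.99% to 8.96% on each of the 20 chromosomes with at least 100 genes tested. DESeq2 called Qsox2 and Surf4, which are named for that reason after their values were seen. Qsox2, which forms disulfide bonds, had 105, 102, 185 and 130.4 counts in WT tumors against 370.5, 215, 261 and 244 in KO tumors, and Surf4, a cargo receptor between ER and Golgi, had 3288, 3446, 4729 and 4391 against 6911, 6006, 5942 and 5135. Of the genes nearest to Il1f10, Psd4 was lower without overlap at 269.9, 310.0, 209 and 237 against 185, 206, 174 and 60.6, with the lowest value in KO replicate 4, and Il1f9 had at most 10.7 counts in any tumor.

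All 8 libraries of KO genotype, including the 4 with γδ TCR antibodies, were last set against all 15 of WT genotype on CPM. In 47 genes (0.284%) they did not overlap, with 3 (0.0181%) higher and 44 (0.266%) lower in KO libraries. In KO replicate 4 and the 4 libraries with γδ TCR antibodies, Gm42418 took 11.3% to 20.1% of reads, against 2.62% to 5.70% in WT libraries. The CPM of other genes is lower where 1 gene takes more of the reads, and its part in this split was not tested. The genes of largest difference were far lower in 5 libraries, KO replicate 4 and the 4 with γδ TCR antibodies, than in KO replicates 1 to 3. F10, a clotting factor, had a median of 51.3 CPM in WT libraries, 31.05 CPM in KO replicates 1 to 3 and 0.250 CPM in those 5. Lgals3, the galectin of macrophages and tumor cells, had medians of 2720 CPM, 1784 CPM and 98.1 CPM in the same order. Slc7a11, which imports cystine, had 18.1 CPM, 13.7 CPM and 1.251 CPM, and Cd37, a membrane protein of leukocytes, had 30.5 CPM, 18.6 CPM and 3.03 CPM. The 3 higher genes were Gm15530, Gpn3 and Adgrg1, named after their values were seen, of which Adgrg1, an adhesion receptor, had a median of 83.6 CPM in WT and 147 CPM in KO libraries.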

How the data were processed

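Per the study's methods, tumors were dissociated, and RNA was isolated with TRIzol and made into QuantSeq 3′ FWD libraries. Per the labels, the submitters' processing notes name STAR, HTSeq, DESeq2 and GRCm39, with no role or version, and the study names a vendor pipeline (BlueBee). The signal values deposited by the authors are read counts per gene divided by 1 size factor per library, with no pooling of replicates. Values of 1 read were 0.755 to 1.41, and dividing by them recovered whole reads (100% of values within 0.0001%), of 8620899 to 15879164 per library. Intervals and limits cover counting error only. No column was left unused.

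Genes with a mean of at least 5 were tested on log2(value + 1) with limma 3.58.1 in R 4.3.3, with Benjamini-Hochberg adjustment at 0.05. Since the unit is a normalized signal, edgeR 4.0.16 and DESeq2 1.42.0 on recovered reads were alternatives. The difference from the antibody effect was an interaction term over 19 libraries. On simulated counts for 16563 genes with 200 changed, limma recovered 195 with 7 false calls, edgeR 197 with 13 and DESeq2 197 with 18. The simulation used the same spread for all genes, changes of at least 2-fold in well-read genes only, and no library that stood apart. It therefore does not show how many changes each tool finds in these tumors. No 2 libraries agreed within sampling noise. Gene types came from GENCODE M21 and promoters from RefSeq, both on GRCm38, which is not the build of the files.

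Members and gene lists were chosen with earlier results of these data known. Named genes were those past the threshold and the 10 higher and 10 lower protein-coding genes of smallest p. The latter were taken among genes with a mean of at least 20 and no overlap. Also named were up to 4 members of smallest p in each list, genes of largest genotype-linked difference, and neighbors of Il1f10. Other members shown were chosen after their values were seen, and some members are not reported here. Alternatives changed the pseudocount, filter, scaling, tool, weights, pairing and libraries.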

Additional observations from a re-analysis of the deposited data

Results flagged for a closer look

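In 348 groups of 4 tumors (141 genes, 29 lists and library measures), the highest or lowest tumor stood far from the other 3 in 24. Chance gives about 1 in 20 for groups that were not chosen by their values. Many of these genes were named for their values in the same tumors, F10, Lgals3 and Cd37 among them. The count of 24 therefore cannot be set against that rate. KO replicate 4 was that tumor in 5, with Jchain at 628 counts, F10 at 14.1, Lgals3 at 1818, Cd37 at 38.1 and processed pseudogenes at 1.46% of reads. WT replicate 1 was it in 5, with Esr1 at 192 counts, Xcl1 at 16.9, Pvalb at 0, Rpl34 at 7007 and a skeletal muscle level of -3.50. KO replicate 3 was it in 4, with Cd3e at 34.7 counts, Il1rap at 440.2, Hdac1 at 187 and an IL-1 family level of 0.0639. WT replicate 2 stood apart in Mylk at 1987 counts, the macrophage level at 0.52 and the level of interferon-stimulated genes at 0.00547, which was the lowest of the WT tumors. WT replicate 4 stood apart in Gm10093 at 43.8 counts, Ccl5 at 285 and the fibroblast level at 0.44, WT replicate 3 in Cadm1 at 1655, KO replicate 1 in Gbp3 at 331, and KO replicate 2 in Dhx58 at 227 and Psmb10 at 662.

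The knockout and the antibody effect differed in Gm10093 by 3.92 on the log2 scale in limma's interaction test (adjusted p = 0.0185), where the antibody effect alone was 0.11 ± 0.32.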

How the results depend on the processing

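The number of genes past an adjusted p of 0.05 depended on the tool. With 8 libraries limma called 1, edgeR 0, DESeq2 305 and limma with library weights 22, and 2219 genes had an unadjusted p under 0.05 in edgeR. Leaving out single libraries gave 0 to 7 calls. Gm10093 was no longer called without WT replicates 1 or 2 or KO replicates 2, 3 or 4, while 7 genes were called without WT replicate 3 and 4 without KO replicate 1. Without KO replicate 4 limma called 0, edgeR 16, DESeq2 483, a pseudocount of 0.5 gave 1, no filter 20 and the spread shared over all libraries 3, and leaving out a further library gave 0 to 2. The interaction then gave 2 genes. Genes whose groups do not overlap numbered 1470 to 2176 with 1 library left out, against 1170, where fewer tumors make overlap less likely. Same-numbered KO and WT tumors had correlations of deviations of 0.02, 0.07, 0.03 and 0.06, so the numbers do not pair them, and a replicate block called 0 genes with 8 libraries (2275 at an unadjusted p under 0.05) and 0 without KO replicate 4 (2083). Leaving out 1 library, Bst2 ranged from -0.29 to 0.0036, the latter without KO replicate 4, and Cxcl10 from -0.18 to 0.0816, above 0 without WT replicate 1 (0.0499), WT replicate 4 (0.077) or KO replicate 1 (0.0816). The medians of nerve and Schwann genes (0.175 to 0.504), IL-1 family genes (-0.358 to -0.114) and glycolysis genes (-0.084 to 0.0729) moved by more than the spread of tumors with 1 library left out, and those of neutrophils and fibroblasts also changed sign. All 29 list medians kept their sign under each scaling, including CPM, which was chosen after seeing the data. The cause of these differences was not tested. DESeq2 gave no adjusted p for 12 of 25 T cell and 3 of 6 γδ T cell genes.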

Other observations

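Nnt, the mitochondrial transhydrogenase, was chosen after its values were seen. It had 265, 334, 577 and 320.0 normalized counts in WT tumors and 624, 564, 603 and 482 in KO tumors, so that WT replicate 3 lay among the KO tumors. It had 227 to 376 counts in the isotype tumors and 259 to 379 with anti-IL-38. As background, the C57BL/6J substrain carries a deletion in Nnt that C57BL/6N lacks. The substrain of each tumor is not given in the labels, and substrain and genotype cannot be told apart here.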
